A study of Mus musculus with 4 samples.

Results

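Interferon-stimulated genes, the genes that cells switch on when they sense interferon, were followed in dystrophic muscle with and without matrix metalloproteinase 2 (MMP-2). The list held 39 genes. A gene was measured where at least 1 probe set (the group of short probes that reads 1 transcript on the array) carried its symbol and no other, and the probe set with the highest mean signal over the 4 arrays stood for it. This rule found 37 of the 39 genes among 18193 genes with such a probe set. Isg15 and Ifi44 were not analysed here. Of the 37, 34 exceeded a signal floor of 17.4 in at least 1 array and 32 did so in all 4. Oas3, Mx2 and Stat2 stayed at or under the floor in every array and have no fold here.

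Tibialis anterior muscle of the lower leg came from C57BL/6J mice in 4 groups. These were mdx at 1 month, mdx at 3 months, mdx/MMP-2-/- at 1 month and mdx/MMP-2-/- at 3 months. All groups share the mdx background, which lacks dystrophin and is a standard model of Duchenne muscular dystrophy. MMP-2-/- mice lack MMP-2, a secreted enzyme that cuts basement membrane and denatured collagen. No group had wild-type dystrophin. Each group was read on 1 Affymetrix array from total RNA, and the sources used here do not say how many animals gave that RNA. With 1 array per group the differences carry no test and no error, and their number limits the precision. In what follows "higher" and "lower" compare 2 arrays.

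Values are MAS5 signals after quantile normalization, in arbitrary linear units. A member is counted as differing when 2 arrays lie 1.5-fold or more apart, and each such count stands beside the share of all 12781 tested genes that did the same. The deposited signals were uneven between arrays, with 2% trimmed means from 91.3 to 123.6, which is why they were normalized. The array labels held for the deleted gene, as Mmp2 signals were 974 and 834 in mdx and 20.8 and 38.4 in mdx/MMP-2-/-. Muscle was the dominant tissue in each array: all 8 fibre markers (such as Ckm and Acta1) were far above the floor, with summed signals from 108663 to 109750. Quantile normalization gives each array the same highest values, which recur among these markers. Their sums could therefore hardly differ and do not compare fibre content.

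Interferons are secreted signals that bind paired receptors on the cell surface. Type I interferons (the alpha and beta forms) act through the kinases Jak1 and Tyk2 on a complex that includes Stat2 and Irf9 and binds the interferon-stimulated response element (ISRE). Interferon gamma acts through Jak1 and Jak2, and its signal reaches genes with a gamma-activated site (GAS). The products sense foreign nucleic acid, block viral replication, process antigen for class I presentation, and feed back on the signal itself.

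Promoters of 5 members show the elements named above, which the choice of the list did not use. The first 4 are the members with the largest difference between genotypes at 1 month among those with an ISRE match, and Irf1, chosen after its values were seen, shows a GAS match in a member that was lower. Each line gives the 200 bases before the gene start on the gene's strand, 5′ to 3′, from RefSeq on GRCm38.p6. Capitals mark the match. The ISRE was searched on both strands as GAAA, any 2 bases and GAAA, so on the opposite strand it reads TTTC, any 2 bases and TTTC. The GAS was searched as TTC, any 3 bases and GAA, which is the same on both strands.
Rsad2 (chr12:26456453-26456652, minus strand, ISRE): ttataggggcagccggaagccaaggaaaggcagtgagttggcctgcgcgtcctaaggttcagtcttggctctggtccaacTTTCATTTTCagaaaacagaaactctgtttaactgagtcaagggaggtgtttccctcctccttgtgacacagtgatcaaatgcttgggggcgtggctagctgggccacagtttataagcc
Ifit3 (chr19:34583329-34583528, plus strand, ISRE): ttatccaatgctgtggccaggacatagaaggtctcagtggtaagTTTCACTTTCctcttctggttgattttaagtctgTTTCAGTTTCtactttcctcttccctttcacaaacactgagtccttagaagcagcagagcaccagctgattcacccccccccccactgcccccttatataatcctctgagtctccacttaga
Gbp2 (chr3:142620463-142620662, plus strand, ISRE): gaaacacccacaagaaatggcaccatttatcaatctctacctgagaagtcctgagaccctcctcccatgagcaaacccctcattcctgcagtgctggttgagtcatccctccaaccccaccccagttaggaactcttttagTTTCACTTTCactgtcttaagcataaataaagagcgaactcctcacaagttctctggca
Ifit1 (chr19:34640689-34640888, plus strand, ISRE): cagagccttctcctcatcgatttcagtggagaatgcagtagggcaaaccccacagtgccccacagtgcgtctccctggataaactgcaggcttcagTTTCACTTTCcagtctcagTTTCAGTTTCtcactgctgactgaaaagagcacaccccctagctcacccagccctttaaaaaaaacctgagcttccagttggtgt
Irf1 (chr11:53769814-53770013, plus strand, GAS): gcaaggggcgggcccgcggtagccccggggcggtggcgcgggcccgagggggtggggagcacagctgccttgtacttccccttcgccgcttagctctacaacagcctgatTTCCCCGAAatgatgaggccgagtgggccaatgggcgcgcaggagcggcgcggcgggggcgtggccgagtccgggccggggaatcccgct

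An ISRE match lay in the promoter window (250 bases before to 50 after the start) of 15 of the 30 listed genes with a RefSeq window, against 3.99% of all 27025 genes with one. A GAS match lay in 9 of 30, against 9.55% of all genes. These 30 include Isg15, Ifi44, Oas3 and Stat2, which have no fold here. Matches of the same motif that overlap were counted separately, and Ifit3 and Ifit1 each held a pair of ISRE matches that did not overlap. A match describes letters in a window and says nothing of binding. Of the 26 measured members with a window, the 12 with an ISRE match had a median log2 difference between genotypes of 0.24 at 1 month and 0.27 at 3 months. The 14 without one had medians of 0.18 and -0.02. For the 9 with a GAS match they were 0.00 and 0.15. At least 1.5-fold higher were 3 of the 12 at 1 month and 0 at 3 months. Among the 14 these were 2 and 1. The shares of all tested genes were 3.51% at 1 month and 6.11% at 3 months. Whether these groups of members differ was not tested.

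**Figure D1:**
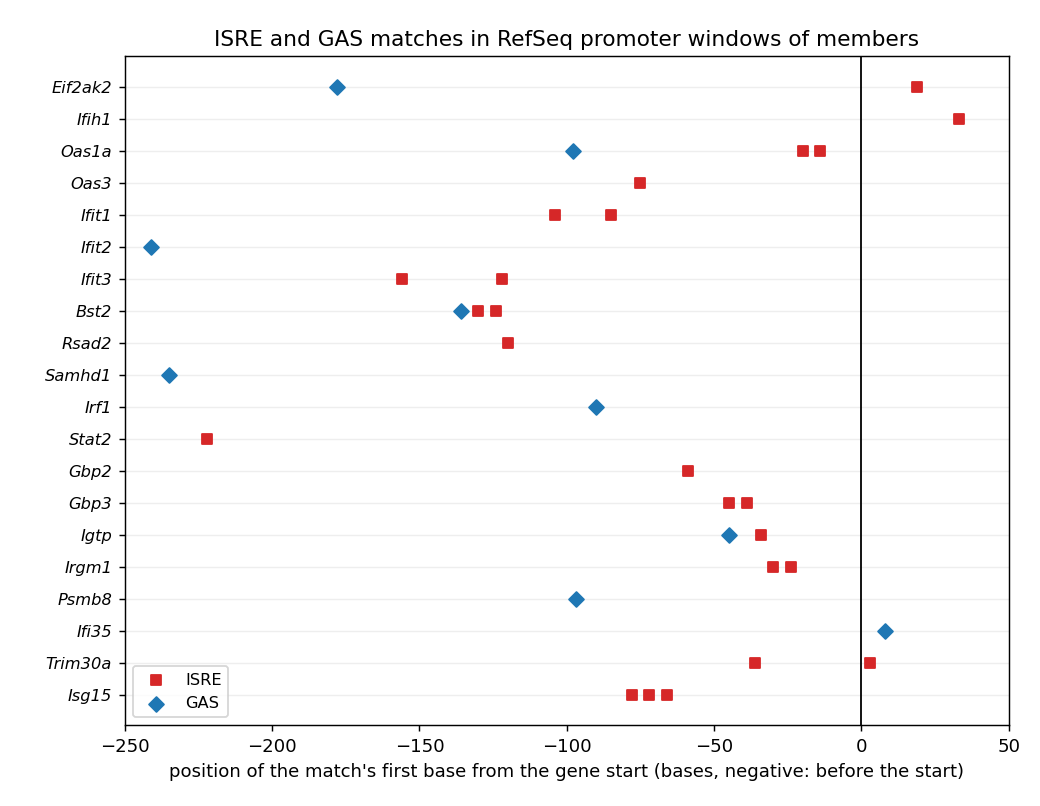
Positions of ISRE (squares) and GAS (diamonds) matches from the gene start, in bases, 1 row for each listed gene with a match; the vertical line is the start. Most ISRE matches sit within 160 bases before the start, with Stat2 at -222, and Ifih1, Eif2ak2 and 1 window of Trim30a have theirs just after it.

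The genotypes were compared first at 1 month. The mdx/MMP-2-/- array was higher for 25 of 34 members and lower for 8, with Igtp equal, where 46.7% of all tested genes were higher and 48.4% lower. Rsad2, Zbp1, Ifit3, Cmpk2, Oasl2, Dhx58 and Gbp2 were at least 1.5-fold higher. That made 7 of 34 members, against 3.51% of all genes. No member was 1.5-fold lower, against 3.58% of all genes. The median log2 difference was 0.24, against 0.00 for all genes. Rsad2 alone passed 2-fold, 1 of 34 members against 0.587% of all genes, and none was 2-fold lower, against 0.595%. Dhx58 and Mx1 entered the count through the mdx/MMP-2-/- arrays alone. Among the 32 members above the floor in every array, 6 were at least 1.5-fold higher, against 2.67% of the 10677 genes that met the same condition, and 23 higher at all. In a bulk sample, fewer or more cells of a type and less or more RNA per cell cannot be told apart.

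**Figure D2:**
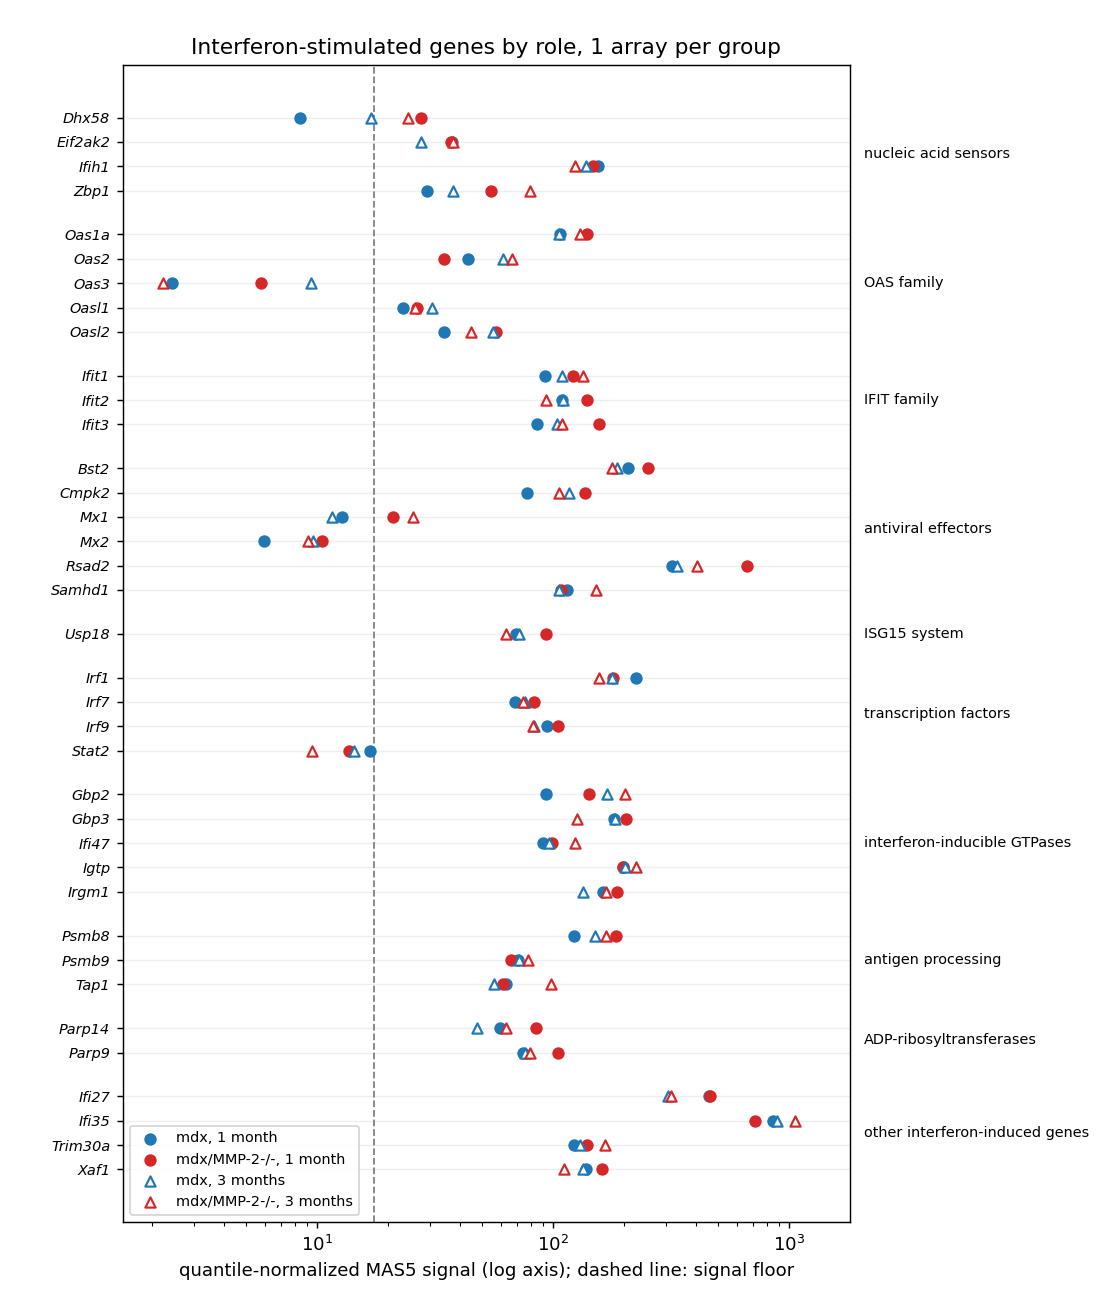
Quantile-normalized signal (log axis) of the 37 members in each of the 4 arrays, grouped by role; blue is mdx, red mdx/MMP-2-/-, filled circles 1 month and open triangles 3 months, and the dashed line is the floor of 17.4. Rsad2, Ifit3, Cmpk2 and Oasl2 show a red circle at 1 month to the right of the blue one, and Oas3, Mx2 and Stat2 lie left of the floor.

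The antiviral effectors held the largest difference at 1 month. Rsad2 encodes viperin, a radical enzyme that makes a chain-terminating nucleotide. Its signals were 318 in mdx and 661 in mdx/MMP-2-/- at 1 month, and 334 and 407 at 3 months. The mdx/MMP-2-/- array at 1 month thus stood apart from the other 3, 2.08-fold above mdx of that age. The other probe sets of Rsad2 gave 1.44-fold (71.4 against 49.7) and 1.61-fold (202.5 against 125.8) in the same direction at 1 month. At 3 months they disagreed: the first was 1.60-fold lower in mdx/MMP-2-/- (35.5 against 56.7) and the second 1.05-fold higher (134.9 against 129.0).

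Cmpk2, a mitochondrial nucleotide kinase, is the next protein-coding gene to Rsad2 on chromosome 12 of the RefSeq table (GRCm38.p6). Cmpk2 read 77.4 and 135.5 at 1 month and 116.3 and 105.1 at 3 months, in mdx and mdx/MMP-2-/- respectively. It was 1.75-fold higher in mdx/MMP-2-/- at 1 month and 1.11-fold lower at 3 months, so both neighbours were highest in the same array. With the mean of all probe sets the Cmpk2 log2 difference at 1 month was 0.40, below 1.5-fold, because its other probe set was at the floor. Bst2, which tethers budding virions to the cell, and Samhd1, which depletes nucleotides, had log2 differences of 0.28 and -0.08 at 1 month. Mx1, a dynamin-like GTPase, was under the floor in both mdx arrays (12.7 and 11.5) and above it in both mdx/MMP-2-/- arrays (21.0 and 25.4), which puts the difference at 1.2-fold or more at 1 month and 1.45-fold or more at 3 months.

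All 3 members of the IFIT family, proteins that bind foreign RNA ends and block translation, were higher in mdx/MMP-2-/- at 1 month. Ifit3 signals were 85.0 and 156.2 at 1 month and 103.5 and 108.3 at 3 months. The difference was 1.84-fold at 1 month and 1.05-fold at 3 months. Ifit1, the cap-binding member, read 92.3 and 121.2 at 1 month and 108.3 and 134.1 at 3 months, which was 1.31-fold and 1.24-fold higher. Ifit2 was 108.3 and 139.0 at 1 month but 110.0 and 92.8 at 3 months, 1.28-fold higher and then 1.19-fold lower. The family therefore lay one way at 1 month and split at 3 months.

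OAS enzymes make a short messenger from ATP that activates RNase L, and the OASL proteins are their relatives. Oasl2 gave 34.5 and 57.0 at 1 month and 55.7 and 44.9 at 3 months. It was 1.65-fold higher in mdx/MMP-2-/- at 1 month and 1.24-fold lower at 3 months, and the mdx array at 1 month was the lowest of the 4. Oasl1, its chromosomal neighbour, had differences of the same signs, 0.21 and -0.24 on the log2 scale. Oas1a was 1.31-fold and 1.23-fold higher. Oas2 went the other way at 1 month (43.3 and 34.2) and read 60.9 and 66.8 at 3 months.

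Among the nucleic acid sensors Zbp1, which recognises Z-form nucleic acid and can start cell death, was the member above 2-fold at 3 months. Its signals were 29.3 and 54.2 at 1 month and 37.5 and 79.7 at 3 months. Both mdx/MMP-2-/- arrays were above both mdx arrays, by 1.85-fold at 1 month and 2.13-fold at 3 months. Its second probe set was under the floor in both mdx arrays (12.2 and 6.32) and read 23.4 and 31.3 in mdx/MMP-2-/-. Dhx58, or LGP2, a helicase that tunes RNA sensing, showed the same separation at low signal: 8.42 and 16.9 in mdx, both under the floor, and 27.3 and 24.2 in mdx/MMP-2-/-. That is at least 1.57-fold higher at 1 month and at least 1.39-fold at 3 months. Ifih1, or MDA5, the sensor of long double-stranded RNA, was 154.0 and 147.6 at 1 month and 137.8 and 123.1 at 3 months, a spread of less than 1.5-fold over the 4 arrays.

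Eif2ak2 encodes PKR, the kinase that halts translation on double-stranded RNA, and its probe sets disagreed. The probe set used gave 37.1 and 36.7 at 1 month and 27.5 and 37.6 at 3 months. The others gave log2 differences of 0.66 and 0.44 at 1 month and 0.60 and 0.47 at 3 months. All 3 probe sets were thus higher in mdx/MMP-2-/- at 3 months, and 2 of 3 at 1 month.

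Irf1, Irf7 and Irf9 are the measured transcription factors among the members. Irf7, the amplifier of type I interferon production, read 68.9 and 82.5 at 1 month and 75.7 and 74.4 at 3 months. Irf9, the DNA-binding part of the type I complex, read 93.8 and 104.5, then 83.0 and 81.9. Irf1, which answers interferon gamma most directly, was lower in mdx/MMP-2-/- at both ages: 224.0 and 178.2 at 1 month, 177.1 and 156.5 at 3 months. Its log2 differences were -0.33 and -0.18, and none of the 3 passed 1.5-fold in any comparison.

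Interferon-inducible GTPases attack the membranes around intracellular microbes. Gbp2 was 92.8 and 140.9 at 1 month and 169.1 and 201.4 at 3 months, 1.52-fold and 1.19-fold higher in mdx/MMP-2-/-. The Gbp2 probe set used is of the kind prone to cross-hybridise. The other Gbp2 probe set gave 1.29-fold and 1.03-fold, and the call at 1 month was lost under 5 of 10 other settings. Gbp3 read 180.2 and 202.8 at 1 month and 182.1 and 126.1 at 3 months, so the mdx/MMP-2-/- array at 3 months was the low one. The immunity-related GTPases Igtp, Irgm1 and Ifi47 had log2 differences from 0.00 to 0.20 at 1 month and from 0.15 to 0.37 at 3 months.

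Tap1 and the immunoproteasome subunits Psmb8 and Psmb9 cut and transport peptides for class I molecules, and the 3 genes are neighbours on chromosome 17. Tap1 read 63.1 and 61.3 at 1 month and 56.1 and 98.1 at 3 months. It differed by 1.75-fold at 3 months, when the mdx/MMP-2-/- array stood above the other 3. With the mean of all probe sets its log2 difference there was 0.20, since its other probe sets were at the floor. Psmb9, whose promoter window overlaps that of Tap1, read 70.7 and 66.4, then 71.2 and 77.7. Psmb8 was 122.4 and 183.4 at 1 month, just short of 1.5-fold, and 150.0 and 166.5 at 3 months. Being neighbours, the 3 genes nevertheless had their highest signals in different arrays, Psmb8 at 1 month and the others at 3 months.

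Usp18, the protease that removes ISG15 and damps the type I receptor, was 69.3 and 92.9 at 1 month and 71.3 and 62.9 at 3 months. Parp9 and Parp14, ADP-ribosyltransferases tied to interferon signalling, were 1.4-fold and 1.43-fold higher at 1 month and 1.05-fold and 1.32-fold higher at 3 months. Trim30a, a ubiquitin ligase family member, was 1.13-fold and 1.27-fold higher. Its second probe set was 1.07-fold lower at 1 month and 1.60-fold higher at 3 months. Xaf1, a promoter of apoptosis, was 1.17-fold higher and then 1.2-fold lower. Ifi27 did not separate the genotypes (458.2 and 459.1, then 306.0 and 314.8).

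Ifi35 is open to its choice of probe set. The one used is also of the kind prone to cross-hybridise. It read 851.7 and 712.1 at 1 month and 883.7 and 1057 at 3 months. Another read 115.4 and 171.3, then 136.6 and 125.2, with both signs turned. Of 10 members with several probe sets above the floor, 4 had at least 1 probe set opposite to the one used at 1 month (Eif2ak2, Ifi35, Samhd1 and Trim30a) and 4 at 3 months (Ifi35, Rsad2, Samhd1 and Xaf1). A Samhd1 probe set prone to cross-hybridise (45.3 and 22.0, then 60.6 and 19.3) was 2.06-fold and 3.13-fold lower in mdx/MMP-2-/-. At 3 months it lay opposite to the one used.

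**Figure D3:**
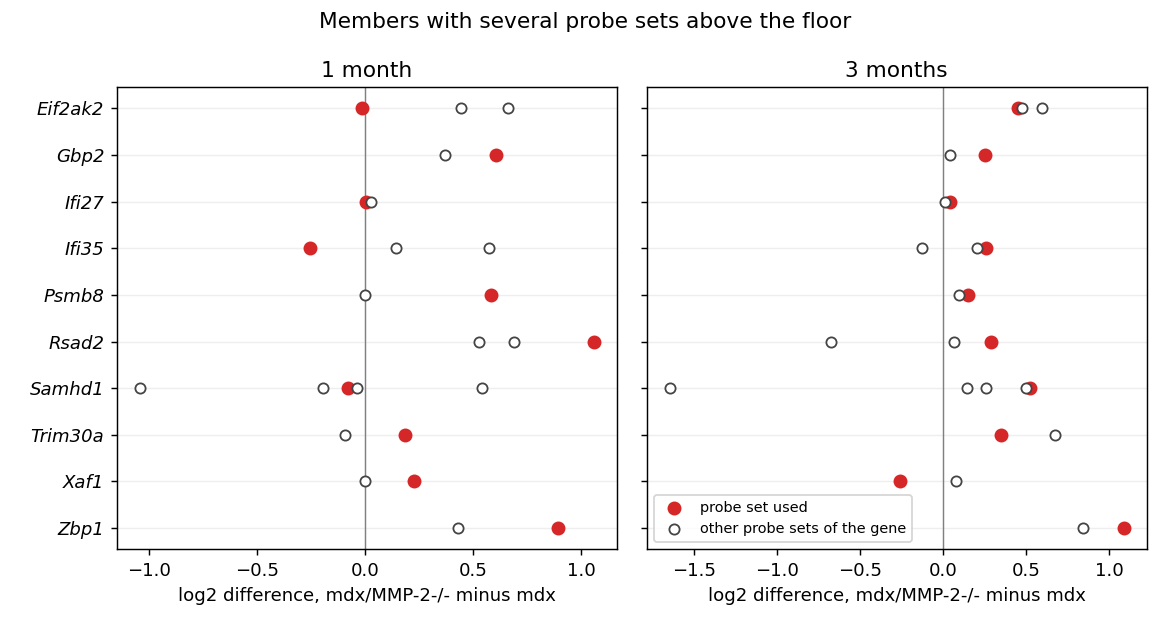
Log2 difference between genotypes for every probe set above the floor of the 10 members with several, at 1 month (left) and 3 months (right); red is the probe set used and open circles the others. All 3 Rsad2 probe sets and both Zbp1 probe sets are above 0 at 1 month, while those of Ifi35 and Samhd1 lie on both sides.

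The same comparison was made at 3 months. Members were higher in mdx/MMP-2-/- in 22 of 34 cases, and lower in 12, where 47.6% of all genes were higher and 48.1% lower. The median log2 difference was 0.14, against 0.00 for all genes. Zbp1 and Tap1 were at least 1.5-fold higher. These 2 of 34 members compare with 6.11% of all genes, so the share was near the background. No member was 1.5-fold lower, against 3.31% of all genes. Past 2-fold stood Zbp1, against 1.19% of all genes, and no member 2-fold lower, against 0.415%. Outside Zbp1 and Tap1 the log2 differences ran from -0.53 (Gbp3) to 0.54 (Mx1, a lower bound).

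Both ages were then set side by side. At both ages 15 members were higher in mdx/MMP-2-/-, among them Rsad2 (by the probe set used), Zbp1, Ifit1, Ifit3, Oas1a and Parp14, against 22.3% of all genes. The 15 include Dhx58 and Mx1, which exceeded the floor in the mdx/MMP-2-/- arrays alone and so could not count as lower. They also include Ifi27, at 1.00-fold and 1.03-fold. Another 10 were higher at 1 month and lower at 3 months, against 22.3% of all genes: Ifit2, Oasl1, Oasl2, Irf7, Irf9, Usp18, Bst2, Gbp3, Xaf1 and Cmpk2. By the probe set used, 6 were lower at 1 month and higher at 3 months, against 22.9% of all genes: Oas2, Ifi35, Tap1, Psmb9, Samhd1 and Eif2ak2. Irf1 and Ifih1 were lower at both ages, 2 of 34 against 23.3% of all genes.

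**Figure D4:**
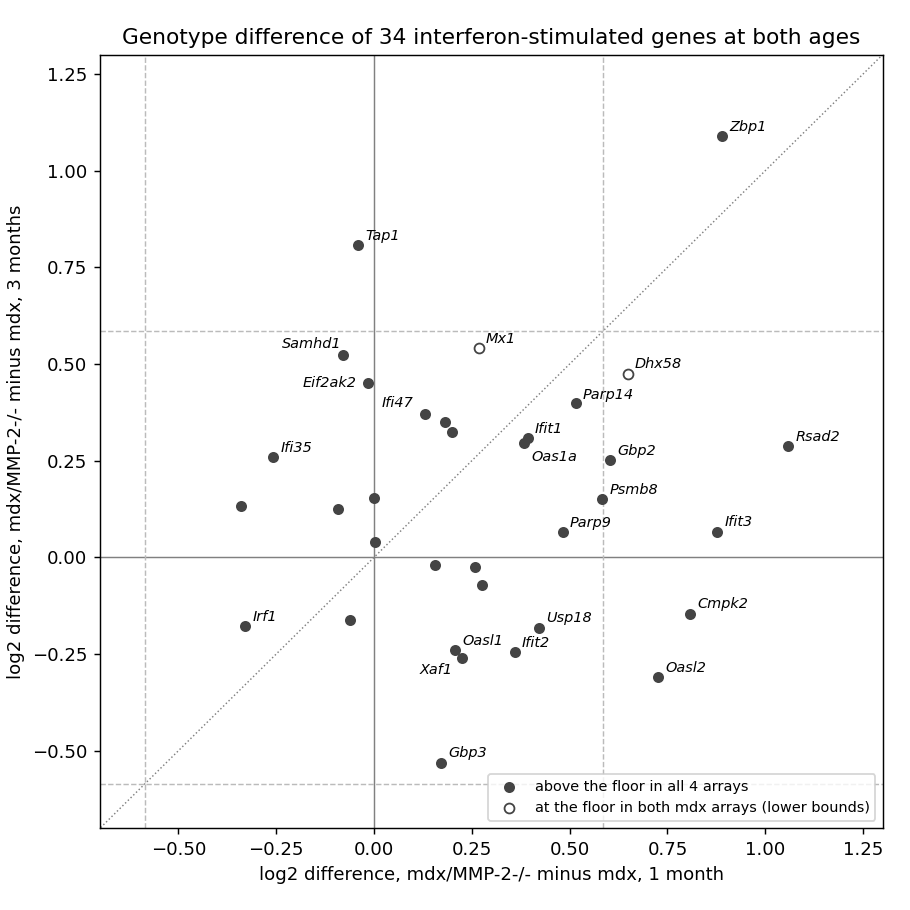
Log2 difference between genotypes at 1 month (horizontal) and 3 months (vertical) for 34 members; dashed lines mark 1.5-fold, the dotted line equal differences, and open circles members whose mdx arrays were under the floor. Zbp1 is past 1.5-fold at both ages, Oasl2 and Cmpk2 at 1 month with values below 0 at 3 months, and Tap1 at 3 months.

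The genotype difference itself moved between ages for some members. Taking the difference at 3 months minus that at 1 month, 7 of 34 members were lower by 1.5-fold or more (Oasl2, Cmpk2, Ifit3, Rsad2, Gbp3, Ifit2 and Usp18), against 7.56% of all genes. Tap1 and Samhd1 were higher by that much, 2 of 34 members against 10.4% of all genes. Oasl2 had the largest value, -1.03 on the log2 scale, followed by Cmpk2 at -0.95 and Ifit3 at -0.81, while Tap1 stood at 0.85. These values use all 4 arrays once, leave no degree of freedom, and were not tested. At 2-fold, Oasl2 was lower, against 1.7% of all genes, and no member higher, against 2.93%. In either direction 9 of 34 members passed 1.5-fold, against 18% of all genes, and 14 members were above 0 and 20 below, against 50.5% and 49.5%. The counts also moved with scaling: 2 members were lower by 1.5-fold with a common median signal, against 4.63% of all genes, and 1 with unscaled signals, against 3.10%. Both counts are near the background, unlike the 7 after quantile normalization. Of the 9 calls, Oasl2 alone kept its call under all 10 other settings.

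An additive model of genotype and age, fitted in limma over all 12781 genes, is the test that 4 arrays allow, with 1 residual degree of freedom and an assumed equal effect of genotype at both ages. It called 0 of 34 members for genotype and 0 for age at a Benjamini-Hochberg adjusted p of 0.05, and 0 of all genes for either. At an unadjusted p of 0.05 it named Zbp1, Dhx58, Parp14 and Rsad2 for genotype, 4 of 34 members against 4.37% of all genes. The Zbp1 effect was 0.99 ± 0.16 (log2, SE, limma adjusted p = 0.982), with both mdx/MMP-2-/- arrays above both mdx arrays. For Rsad2 it was 0.67 ± 0.24 (log2, SE, limma adjusted p = 0.982). The Dhx58 estimate of 0.56 ± 0.15 rests on mdx values raised to the floor. Parp14, at 0.46 ± 0.15, had differences of 0.52 and 0.40 at the 2 ages. For age the unadjusted threshold named Zbp1, Oas2, Gbp2 and Ifi27, 4 of 34 members against 13.8% of all genes.

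Age was compared within each genotype, as 3 months minus 1 month. In mdx, 20 of 34 members were higher at 3 months and 12 lower, where 48.0% of all genes were higher and 47.7% lower, and the median log2 difference was 0.02. Gbp2 was 1.82-fold, Oasl2 1.61-fold and Cmpk2 1.5-fold higher, which made 3 of 34 members against 5.95% of all genes. None was 1.5-fold lower, against 7.29% of all genes, and Ifi27 came nearest (458.2 to 306.0). None of the 3 higher calls held under all 10 other settings. The Cmpk2 value lay at the threshold and was lost under 5, the Oasl2 call was lost with unscaled signals, and the second Gbp2 probe set gave 1.27-fold. No member passed 2-fold in either direction, against 0.962% higher and 1.56% lower among all genes. In mdx/MMP-2-/-, 13 of 34 members were higher and 21 lower, where 50% of all genes were higher and 45.8% lower, with a median of -0.15. Oas2 (1.95-fold, 34.2 to 66.8) and Tap1 (1.60-fold) were higher, 2 of 34 against 7.48% of all genes. Rsad2 (1.62-fold) and Gbp3 (1.61-fold) were lower, 2 of 34 against 6.71%. Both lower calls were lost with a common median signal and with unscaled signals. None passed 2-fold, against 1.48% higher and 1.23% lower among all genes.

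The age and genotype differences share arrays, so the low 1-month mdx signals of Oasl2, Cmpk2 and Gbp2 enter both their age and their genotype values. Of the 34 members, 15 had their lowest signal in mdx at 1 month, where 23% of all genes did. The highest signal fell in mdx/MMP-2-/- at 1 month for 18 members, where 24.2% of all genes did. Actb probes at the 3' end of the transcript exceeded those at the 5' end by 2.36 and 2.09 times in the 3-month arrays and by 1.19 and 1.05 times in the 1-month arrays, a gap that widens as RNA degrades. The same ratio for Gapdh was 0.936 and 0.935 at 3 months and 0.883 and 0.85 at 1 month. The part of RNA quality in the age differences was not tested. Between genotypes of the same age the Actb ratio was slightly lower in mdx/MMP-2-/-.

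**Figure D5:**
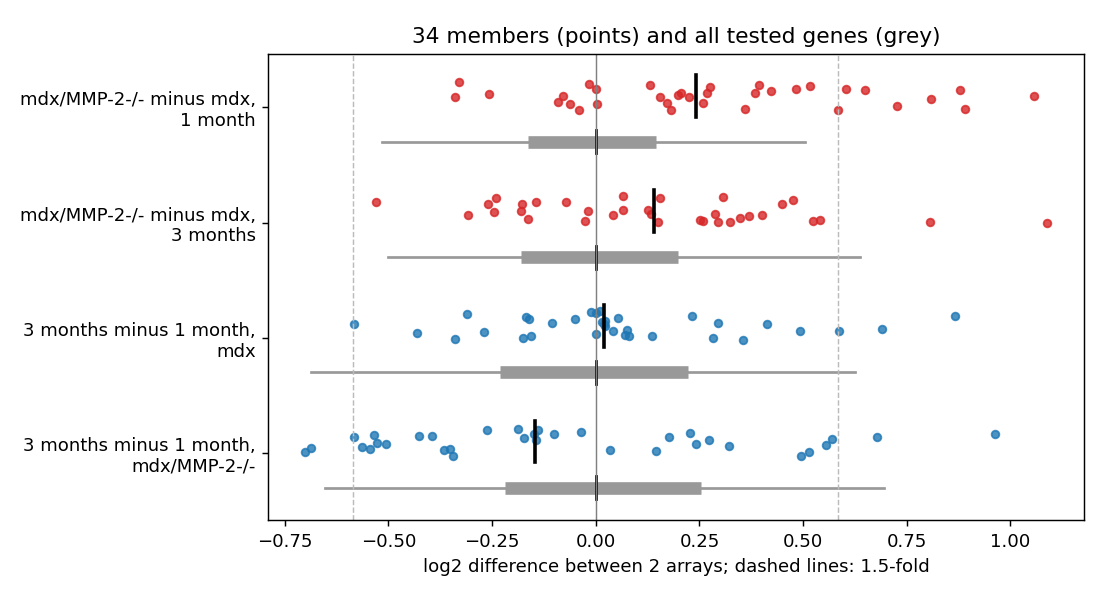
Log2 differences of the 34 members (points, with a black bar at their median) in the 4 comparisons, beside all 12781 tested genes (grey: thick bar 25th to 75th and thin line 5th to 95th percentile); dashed lines mark 1.5-fold. The member median is 0.24 for genotype at 1 month, 0.14 at 3 months, 0.02 for age in mdx and -0.15 for age in mdx/MMP-2-/-.

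Upstream of the members, interferon ligands were hardly seen. Of 10 interferon genes with a probe set, 9 were at or under the floor in all arrays, among them Ifnb1 and Ifng, and Ifnz exceeded it in mdx/MMP-2-/- at 1 month alone (25.5). Receptors and their kinases showed no genotype difference of 1.5-fold: 0 of 8 at either age, against 7.10% of all genes at 1 month and 9.42% at 3 months. By age 3 of the 8 were lower in mdx, Ifnar1 (1.82-fold), Tyk2 (1.68-fold) and Ifngr2 (1.61-fold), and 2 in mdx/MMP-2-/-, Ifngr2 and Jak1 (both 1.64-fold). Among all genes 7.29% were lower by as much in mdx and 6.71% in mdx/MMP-2-/-. In either direction these shares were 13.2% and 14.2%. With the mean of all probe sets none of the receptors and kinases was 1.5-fold lower by age.

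A list of 17 measured genes covered innate sensors, of microbial products as well as nucleic acid, with the adaptors, kinases and factors that start interferon production. At 1 month the mdx/MMP-2-/- signal was lower by 1.5-fold or more for 3 of 17, against 3.58% of all genes: Cgas, the DNA sensor (18.8 against 32), Nlrc5, an inducer of class I genes (24.4 against 40.6), and the kinase Tbk1 (155.2 against 250.4). None was 1.5-fold higher. At 3 months 6 of 17 were at least 1.5-fold higher, against 6.11% of all genes, among them the RNA receptor Tlr7 (at least 2.05-fold), the peptidoglycan sensor Nod1 (1.85-fold), Ifi204 (1.78-fold) and Irf5 (1.72-fold). Their median log2 difference was -0.09 at 1 month and 0.33 at 3 months. With unscaled signals 0 were lower at 1 month, and 12 were higher at 3 months, against 30.1% of all genes.

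Negative regulators of the pathway were read next. Socs3, an inhibitor of cytokine receptors, read 651.7 and 113.6 at 1 month and 272.5 and 487.2 at 3 months, and was the 1 of 15 inhibitors past 1.5-fold at 1 month, against 7.1% of all genes. At 3 months Socs3 and the phosphatase Ptpn6 (37.6 and 152.8) were higher, 2 of 15 against 6.11% of all genes. The count at 1 month is near the background, and 15 genes are too few to place the count at 3 months. Socs1, the inhibitor most tied to interferon, was low in each array (24.7 and 18.9 at 1 month, under the floor at 3 months).

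The 12 further class I presentation genes had no member past 1.5-fold in either genotype difference. With 12 genes this is near the background, 7.1% of all genes at 1 month and 9.42% at 3 months. The class I median log2 difference was -0.13 at 1 month and 0.11 at 3 months. Without the probe sets prone to cross-hybridise it was 0.031 at 1 month relative to all genes. For all 12 the genotype difference at 3 months exceeded that at 1 month, by 0.06 to 0.55, where 50.5% of all genes did.

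A separate list of 51 measured interferon-stimulated genes outside the 39, 1 of which (Tlr3) is also among the sensors, was read the same way. At 1 month 30 were higher and 20 lower, 2 were at least 1.5-fold higher (Slfn2 and Uba7) and 2 lower (Slfn8 and Parp11), with a median of 0.10. These counts are near the shares of all genes, 3.51% higher and 3.58% lower. At 3 months 36 were higher, 7 of them by 1.5-fold or more, 2 were lower by as much (Gbp6 and Cxcl9), against 6.11% and 3.31% of all genes, and the median was 0.23. Ms4a4c, a gene of leukocytes (2.34-fold), and Isg20, an RNA-degrading exonuclease (at least 2.07-fold), led at 3 months. Slfn2, a regulator of immune cell quiescence, was alike at both ages: 79.4 and 140.2 at 1 month and 86.2 and 151.4 at 3 months. With a common median signal 13 were higher and 0 lower by 1.5-fold at 3 months, against 8.35% and 2.39% of all genes. With unscaled signals 32 were higher and 0 lower, against 30.1% and 0.483%. Whether this list and the members differ was not tested.

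Markers of the cells that muscle tissue can hold are given beside these differences, as sums of signals raised to the floor. Counts of markers higher or lower compare with 46.7% and 48.4% of all genes at 1 month. At 3 months these shares were 47.6% and 48.1%. Neutrophil markers differed most between genotypes at 3 months. Of 7 above the floor in at least 1 array, 6 were higher in mdx/MMP-2-/- at that age, with a median log2 difference of 1.33. S100a8 read 342.8 against 35.9 (9.55-fold) and S100a9 216.1 against 20.2 (10.7-fold), and Ltf stayed at the floor. The sum was 774 against 191 at 3 months and 259 against 255 at 1 month, when 2 of 7 were higher.

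Of 11 markers of macrophages and monocytes, 5 had the higher signal in mdx/MMP-2-/- at 1 month, and their summed signal was 6938 against 7250 in mdx. At 3 months 11 of 11 were higher, where 47.6% of all genes were, and the sum was 7988 against 5186. None of the 11 was at the floor in all arrays. Of 7 plasmacytoid dendritic cell markers, Siglech, Ccr9, Pacsin1 and Ly6d were at or under the floor in every array. The sum of all 7 was 7189 against 7879 at 1 month and 7186 against 7547 at 3 months, most of it from Cox6a2, which muscle fibres also express. Among T and NK cell markers 7 of 9, Cd3e, Cd3d and Cd3g included, were under the floor throughout. Their sums, 157.0 against 160.7 at 1 month and 171.2 against 166.7 at 3 months, consist mostly of the floor value and so could hardly differ. Endothelial markers were higher in 6 of 8 cases at 1 month (sum 2117 against 1879) and lower in 7 of 8 at 3 months (1257 against 1350). Of 4 satellite cell markers above the floor, 3 were lower at 1 month (median -0.46, sum 508 against 631) and 4 higher at 3 months (median 0.22, sum 524 against 450). Chrdl2 was at the floor.

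Fibroblast marker sums were 28024 against 28813 at 1 month and 24834 against 23476 at 3 months. For B and plasma cells they were 1273 against 1281 and then 1396 against 1223, with Cd79a and Ms4a1 at the floor. Most of these sums came from Xbp1 (1309 against 1120 at 3 months). At that age Jchain was lower (34.3 against 50.7), and Cd79b exceeded the floor in mdx/MMP-2-/- alone (18.7). For dendritic cells the sums were 160.6 against 176.0 and then 201.8 against 198.6, with Xcr1 and Flt3 at the floor. The part of these markers in the members' differences was not tested.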

How the data were processed

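Total RNA of tibialis anterior of 4 groups, assigned from the sample labels, was hybridised to Affymetrix mouse arrays, 1 per group. The authors deposited intensity values, MAS5 signals per probe set on a linear scale. The submitters' processing notes name MAS5 and the Affymetrix Expression Console. Tool versions and the scaling target are not given in the sources used here. Symbols came from the platform annotation (34945 of 45037 non-control probe sets with 1 symbol, 932 with several). Identifiers of 34754 matched the RefSeq table, which changed 0 symbols.

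Quantile normalization and the additive fit used limma 3.58.1 (R 4.3.3). Signals under the floor (17.4, percentile 50 of the probe sets other than controls) were raised to it before log2, and a fold against a floored array is a lower bound. A gene was tested if at least 1 array exceeded the floor (12781 of 18193). Tables were made with Python 3.11.15, numpy 2.4.6 and pandas 2.3.3, and the code was tested on simulated data. The members, gene lists and tests were chosen with earlier results of these data known. Members past 1.5-fold between genotypes, and the 6 with the largest age differences in each genotype, are given in every array, as are others where roles or probe sets called for it. Up to 4 genes of a pathway list with the largest differences are named, and Socs1, Gbp6 and Cxcl9 were named after their values were seen. Alternatives covered scaling, floor, probe set choice, fold, threshold and variance prior.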

Additional observations from a re-analysis of the deposited data

Results flagged for a closer look

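For 7 members the 2 genotypes differed in opposite directions at 1 and 3 months, with at least 1.5-fold between both differences. The same held for 14.1% of all tested genes. Each direction rests on 1 array per group and the change between ages was not tested. The difference at 3 months minus that at 1 month was -1.03 (log2) for Oasl2, -0.95 for Cmpk2, -0.70 for Gbp3, -0.61 for Ifit2 and -0.60 for Usp18, all higher in mdx/MMP-2-/- at 1 month and lower at 3 months. It was 0.85 for Tap1 and 0.60 for Samhd1, which lay the other way. The 5 lower values compare with 6.06% of all genes and the 2 higher ones with 8.07%. The 1.5-fold call was lost under 4 of 10 other settings for Usp18, 3 for Ifit2, 2 each for Gbp3, Cmpk2 and Samhd1, and 1 for Tap1. Oasl2 kept it under all 10. The opposite directions themselves held in every setting for Gbp3 alone. Over the settings the log2 genotype difference at 3 months ran from -0.31 to 0.15 for Oasl2 and from -0.16 to 0.32 for Cmpk2. It ran from -0.26 to 0.22 for Ifit2 and from -0.19 to 0.28 for Usp18. At 1 month it ran from -0.12 to 0.10 for Tap1 and from -0.18 to 0.04 for Samhd1.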

How the results depend on the processing

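Median differences of the members relative to all genes kept their direction for genotype at 1 month (0.21 to 0.29), at 3 months (0.09 to 0.20) and for age in mdx/MMP-2-/- (-0.17 to -0.12) under all 10 alternatives of scaling, floor, probe set and genes counted. In mdx the age median crossed 0 (-0.03 to 0.02). Of the 7 members called at 1 month, Rsad2, Zbp1, Ifit3 and Oasl2 kept their call under all 10. So did 1 of 2 at 3 months (Zbp1), 0 of 3 by age in mdx, 1 of 4 by age in mdx/MMP-2-/- (Oas2) and 1 of 9 for the change in genotype difference (Oasl2). The mean of all probe sets takes in probe sets at the floor. With it, the members at least 1.5-fold higher numbered 4 at 1 month (1.94% of all genes) and 1 at 3 months (3.63%). They numbered 1 by age in mdx/MMP-2-/- (4.06%) and 0 for the change in genotype difference (6.32%). Leaving signals unscaled moved the median of all genes at 3 months by 0.41. Members at least 1.5-fold higher then numbered 19 at 3 months (30.1% of all genes) and 1 by age in mdx (3.87%). They numbered 6 by age in mdx/MMP-2-/- (19.7%) and 6 for the change (25.2%). The unscaled counts of lower members were 1 in mdx (9.88% of all genes), 0 in mdx/MMP-2-/- (3.72%) and 1 for the change (3.10%). Members above 0 numbered 11, 20 and 22. With a common median signal, 6 were higher by age in mdx/MMP-2-/- (15.5% of all genes) and 0 lower (3.91%). For the change 5 were higher (16.8%) and 2 lower (4.63%). Without a floor 1 was higher for the change (12.6% of all genes). At 2-fold, 1 member was higher at 1 month and 1 at 3 months, 0 by age in mdx, 0 higher and 0 lower by age in mdx/MMP-2-/-, and 0 higher and 1 lower for the change. The class I median at 1 month relative to all genes was 0.031 without probe sets prone to cross-hybridise. The additive fit called 4 members for genotype and 4 for age at an unadjusted p of 0.05. At an adjusted p of 0.05 it called 0 for both under every other setting run. The cause of the scaling shifts was not tested. No paired analysis was possible because each group holds 1 array, and for the same reason no replicate could be left out. Members near the floor (Dhx58, Mx1, Oasl1) have little signal over background.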
